A study of Mus musculus with 3 samples.

Results

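The MHC class II presentation genes are the genes by which a cell displays peptides from its endosomes to helper T cells. Of 28074 gene symbols in the deposited table, 10 were taken by symbol: H2-Aa, H2-Ab1 and H2-Eb1, which encode class II chains, Cd74, H2-DMa, H2-DMb1, H2-DMb2, H2-Oa, H2-Ob and Ciita. All 10 had 1 row each and a mean of at least 1 TPM (transcripts scaled for length and to a fixed total per library), as did 15181 genes in all. They were chosen by symbol after a high Cd74 level and a shared order of the mice had been seen in these same 3 libraries, so levels and orders below are descriptions and carry no test.

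The libraries came from 3 mice of 1 group with the genotype miR-196b-/-, Dnmt3a fl/fl, Flt3 ITD/ITD, Mx1Cre, called BKO AML. In them the microRNA miR-196b is deleted, Dnmt3a is a DNA methyltransferase with floxed alleles, and Flt3 carries an internal tandem duplication on both copies. Mx1Cre is a Cre driven by an interferon-inducible promoter that is active in many cell types, so deletion is not limited to blood cells. The sample titles give Dnmt3a+/- where the genotype field gives Dnmt3a fl/fl, and neither strain, age nor H2 haplotype is stated. Each mouse was moribund with acute myeloid leukemia, and its spleen cells were cleared of red cells and enriched with magnetic beads for c-Kit, a receptor of immature blood cells. The control leukemias with intact miR-196b belong to another series and are not used here, so nothing below compares genotypes. The number of a mouse only names it.

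Class II molecules are pairs of an alpha and a beta chain that are assembled in the endoplasmic reticulum around the invariant chain, the product of Cd74. The invariant chain blocks the peptide groove and guides the complex to endosomes, where proteases trim it and H2-DM exchanges its last fragment for a peptide, while H2-DO restrains H2-DM. Ciita, the class II transactivator, binds no DNA itself and is recruited by a complex of regulatory factor X, NF-Y and CREB-family proteins that sits on the X and Y boxes of class II promoters. Such expression is a hallmark of dendritic cells, B cells and activated macrophages.

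The X and Y boxes are shown here because they are the sequence feature these genes are known to share. RefSeq promoters on build GRCm38.p6, each of 300 bases (250 before the transcript start and 50 after it), were matched by symbol for 7 of the 10 genes, H2-DMa with 2 starts. Capitals mark the pieces searched, GNAAC from the X box and ATTGG from the Y box. The windows lie on chromosome 17 at chr17:34287867-34287916 on the minus strand for H2-Aa, and on the plus strand at chr17:34305764-34305812 for H2-Eb1, chr17:34145115-34145163 for H2-DMb2, chr17:34092291-34092340 for H2-Oa and chr17:34238806-34238852 for H2-Ob.
H2-Aa: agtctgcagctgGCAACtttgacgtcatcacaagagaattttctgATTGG
H2-Eb1: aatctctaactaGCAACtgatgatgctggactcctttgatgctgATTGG
H2-DMb2: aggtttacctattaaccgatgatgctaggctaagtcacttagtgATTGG
H2-Oa: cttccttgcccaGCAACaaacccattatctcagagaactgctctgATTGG
H2-Ob: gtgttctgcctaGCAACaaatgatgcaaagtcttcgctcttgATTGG

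Searched on both strands, GNAAC occurred in 84.8% of the 32851 promoters in the table and ATTGG in 37.4%, so either piece alone is common. The pieces do not overlap each other, and the 2 together in the order X then Y, with 15 to 35 bases between them, were found on the gene's own strand in 1.74% of promoters and on either strand in 3.51%. Of the 7 genes searched, 5 held that arrangement on their own strand: H2-Aa, H2-Eb1, H2-DMb1, H2-Oa and H2-Ob, with 25 to 28 bases between the pieces. The X piece began 81 bases before the start in H2-Aa, 91 in H2-Eb1, 94 in H2-DMb1, 76 in H2-Oa and 87 in H2-Ob. The H2-DMb1 window lies within the untranslated first exon of the GENCODE M21 model and is not printed, while the last base of the H2-Oa window is the first base of its GENCODE exon. The H2-DMb2 window and the promoters of H2-DMa lie inside the GENCODE spans of their genes, past the annotated gene starts. Whether the H2-DMb2 window overlaps an untranslated exon was not checked. H2-DMb2 held ATTGG but no GNAAC at that spacing, and the promoters of H2-DMa held no such pair. The run ATGATGC, chosen after the windows were seen, occurred in 4 of the genes (H2-DMb1, H2-DMb2, H2-Eb1 and H2-Ob) and in 2.46% of all promoters on either strand. A match describes letters in a window and shows no binding.

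**Figure D1:**
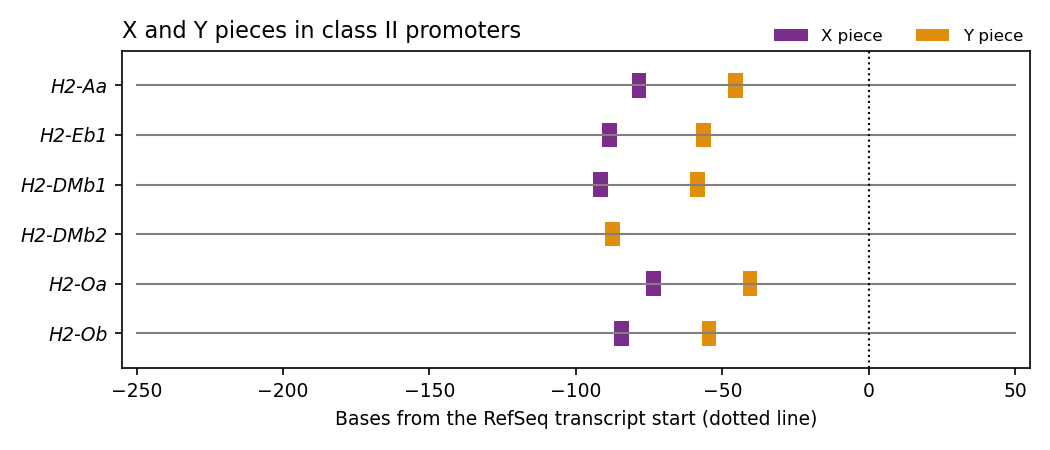
Positions of the X piece (purple) and the Y piece (orange) in 6 class II promoters, in bases from the RefSeq transcript start on the horizontal axis, with the X piece drawn only where it precedes the Y piece by 15 to 35 bases. The X pieces of the 5 promoters with such a pair begin between 76 and 94 bases before the start. For H2-DMb2 only the Y piece is drawn, as no X piece lies at that spacing.

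In the GENCODE M21 annotation (GRCm38), 8 of the 10 genes lie on chromosome 17 between 34092340 and 34316674, a span of 224 kb. Their order is H2-Oa, H2-DMa, H2-DMb2, H2-DMb1, H2-Ob, H2-Ab1, H2-Aa and H2-Eb1, and only H2-Aa is on the minus strand. Ciita lies on chromosome 16 (10480059 to 10528418, plus strand) and Cd74 on chromosome 18. All 10 are annotated as protein coding.

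The 10 genes together summed to 15215, 26168 and 17900 TPM in mice 1, 2 and 3. That was 1.65%, 2.84% and 1.94% of all TPM on named rows, on average 2.15% ± 0.62 (SD, n = 3). Cd74 and the 3 chain genes made up 94.3%, 94.4% and 94.4% of the class II sum, and the other 6 genes the rest. The split between Cd74 with the chains and the other 6 genes summed was thus nearly the same in the 3 mice although the sum differed. Ratios among those 6 genes did differ between mice, as given below for H2-DM and H2-DO. No counting interval can be given for any level, because TPM keeps no read depth. In RNA from a mixed cell population, fewer cells of a type and less RNA per cell cannot be told apart.

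Among the chains, H2-Ab1, the beta chain of the I-A molecule, stood at 3285 TPM in mouse 1, 5886 in mouse 2 and 4057 in mouse 3. Its alpha partner H2-Aa stood at 2867, 4957 and 3359 TPM. H2-Eb1, the beta chain of the I-E molecule, stood at 1804, 3427 and 2290 TPM. In each of these genes mouse 2 was the highest and mouse 1 the lowest, and the 3 genes ranked 13, 15 and 25 by mean TPM among all symbols.

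The alpha and beta transcripts of I-A kept a near-constant ratio. H2-Aa was 0.873, 0.842 and 0.828 times H2-Ab1 in the 3 mice, on average 0.848 ± 0.023 (SD, n = 3). On the log2 scale H2-Ab1 exceeded H2-Aa by 0.24 ± 0.04 within mice (SD, n = 3), higher in 3 of 3, while the ranges of the single genes overlapped between mice. H2-Eb1 was 0.565 ± 0.017 times H2-Ab1. H2-Ea, the alpha partner of H2-Eb1, is a pseudogene in some laboratory strains and stands in the table as H2-Ea-ps, at 0.156, 0.737 and 0.433 TPM. The I-E beta transcript was abundant and its alpha partner was near 0, as listed. H2-Eb2, a further class II beta gene, was at 7.27, 8.63 and 8.44 TPM, a mean of 8.12 ± 0.738 (SD, n = 3). Chains differ in sequence between haplotypes, and how well the reads of these mice match the reference chains was not tested.

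Cd74 was the most abundant of the 10 genes, at 6391, 10438 and 7189 TPM. It was 1.95, 1.77 and 1.77 times H2-Ab1, and 0.803, 0.731 and 0.741 times the sum of the 3 chains. Beside the chains, Cd74 thus varied less between mice than they did: mouse 2 was 1.63 times mouse 1 in Cd74, against 1.73 in H2-Aa, 1.79 in H2-Ab1 and 1.90 in H2-Eb1.

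H2-DMa, the alpha chain of the peptide exchanger H2-DM, was at 340, 489 and 334 TPM. It is the 1 gene of the 10 in which mouse 3 and not mouse 1 was the lowest, at 0.982 times mouse 1, and scaling the columns to a common upper quartile turned that order. H2-DMb1, an H2-DM beta chain, was at 274, 456 and 279 TPM, and its neighbour H2-DMb2, encoding a second beta chain, was at 102, 161 and 114 TPM. Mouse 2 stood above the other 2 mice in all 3 genes, and mice 1 and 3 lay close together in H2-DMa and H2-DMb1. In H2-DMb2 mouse 3 lay 0.16 above mouse 1 on the log2(TPM + 1) scale, beside 0.17 in Cd74. H2-DMb2 was 0.372, 0.354 and 0.409 times H2-DMb1. The alpha transcript was 0.906, 0.792 and 0.850 times the sum of both beta transcripts. H2-Ab1 stood 9.66 times above H2-DMa in mouse 1 and 12.1 times above it in mouse 3.

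The 2 beta genes share sequence, which limits how reads can be split between them. Of the distinct 31-base words in GENCODE transcripts of H2-DMb1, 31.4% also occur in H2-DMb2, and 29.7% of those of H2-DMb2 occur in H2-DMb1. H2-DMa shares 9.23% of its words with its neighbour Brd2, a chromatin reader at 253 ± 31.6 TPM (SD, n = 3), and H2-Oa shares 18.3% with BC051537. The shares were 2.77% or less in the other 6 genes and 0 in H2-Ob. The levels of H2-DMb1, H2-DMb2, H2-Oa and H2-DMa are uncertain for this reason, and by how much was not tested.

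H2-Oa and H2-Ob encode the chains of H2-DO, the modulator of H2-DM known chiefly from B cells, thymic epithelium and some dendritic cells. H2-Ob was at 66.7, 149 and 121 TPM. H2-Oa was at 17.3, 48.9 and 45.4 TPM, the lowest of the 10 genes in each mouse. In both genes mice 2 and 3 lay together well above mouse 1, unlike in the chains, where mouse 3 lay nearer to mouse 1. Mouse 2 was 2.83 times mouse 1 in H2-Oa and 2.23 times in H2-Ob, and mouse 3 was 2.63 and 1.81 times mouse 1. The alpha to beta ratio of H2-DO was 0.259, 0.329 and 0.376.

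The balance of H2-DM to H2-DO transcripts therefore differed between the mice. H2-DMa was 19.7 times H2-Oa in mouse 1, 9.99 times in mouse 2 and 7.36 times in mouse 3. The summed H2-DM beta transcripts were 5.63, 4.14 and 3.26 times H2-Ob. Among the 45 pairs of the 10 genes, the log2 ratio of H2-DMa to H2-Oa had the widest spread between mice, with an SD of 0.73 (n = 3). The tightest was Cd74 with H2-DMb2, with an SD of 0.024, followed by H2-Aa with H2-Ab1 at 0.039, and the median over pairs was 0.22.

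Ciita, the transactivator, was at 68.2, 157 and 112 TPM. Mouse 2 was 2.30 times and mouse 3 1.64 times mouse 1, a wider range than in the chain genes. Cd74 was 93.8, 66.7 and 64.3 times Ciita, and H2-Ab1 was 48.2, 37.6 and 36.3 times Ciita. Relative to Cd74 and H2-Ab1, the Ciita level was thus lowest in mouse 1. Relative to H2-Ob it was lowest in mouse 3, with a ratio of 1.02, 1.05 and 0.927.

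**Figure D2:**
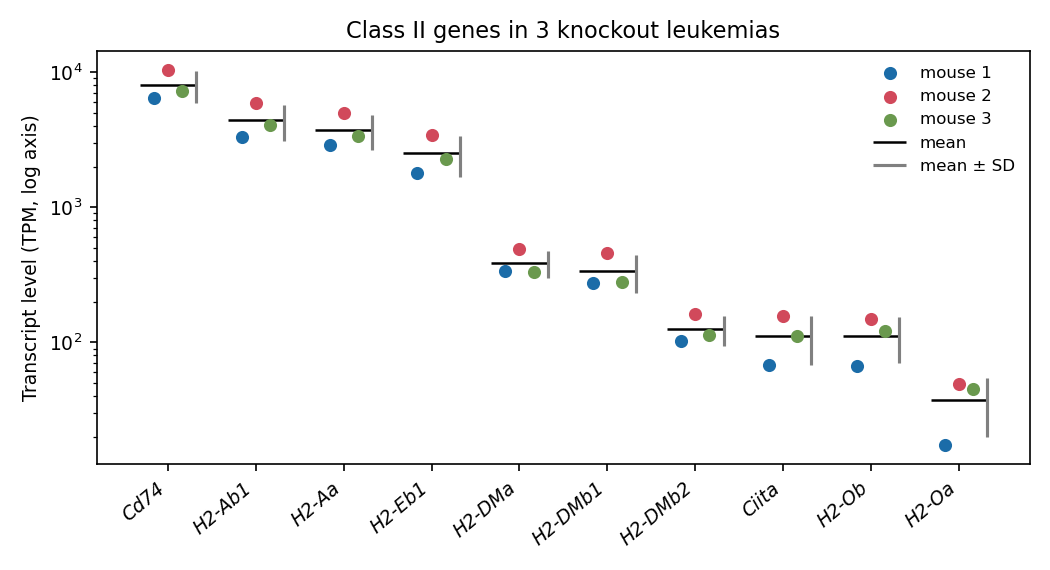
TPM of the 10 genes in each of the 3 mice (points, log axis), with the mean (black line) and mean ± SD (grey bar, n = 3), ordered by mean. Levels run from 8006 TPM in Cd74 to 37.2 TPM in H2-Oa, and mouse 2 is the highest point for each gene.

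In order of mean the genes were Cd74 (8006 ± 2143 TPM, SD, n = 3), H2-Ab1 (4409 ± 1336), H2-Aa (3728 ± 1093), H2-Eb1 (2507 ± 833), H2-DMa (388 ± 87.7), H2-DMb1 (336 ± 104), H2-DMb2 (126 ± 31.4), Ciita (112 ± 44.2), H2-Ob (112 ± 41.8) and H2-Oa (37.2 ± 17.3). The step from H2-Eb1 down to H2-DMa, 2.66 ± 0.22 on the log2 scale, was the widest between neighbours in this order. Of 9 neighbouring pairs, 5 differed by more than the larger SD of the pair. The 4 that did not were H2-Ab1 with H2-Aa, H2-DMa with H2-DMb1, H2-DMb2 with Ciita, and Ciita with H2-Ob. Within single mice the direction was the same in 3 of 3 for 8 of the 9 pairs, and only Ciita with H2-Ob changed places.

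Across mice the 10 genes shared most of their order. Mouse 2 was the highest in 10 of 10, as it was in 31.1% of all genes with a mean of at least 1 TPM. Mouse 1 was the lowest in 9 of 10, against 24.3% of all genes, and the full order of Cd74 (mouse 2, then 3, then 1) was seen in 8 of the 9 others, against 14.4%. The exception was H2-DMa both times. Under upper-quartile scaling 9 of 9 had that order, against 19.9% of all genes. Mouse 1 was then the lowest in 10 of 10, against 35.8% of all genes. A range of 2-fold or more between the highest and lowest mouse on the log2(TPM + 1) scale was reached by 3 of 10, Ciita, H2-Oa and H2-Ob, against 8.57% of all genes. That count rests on mouse 1: without it 0 of 10 reached 2-fold, and without mouse 2 only H2-Oa did. Upper-quartile scaling gave 4 of 10, with H2-Eb1 added, against 8.63% of all genes. These shares describe 3 libraries, and the genes were chosen with their order known.

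**Figure D3:**
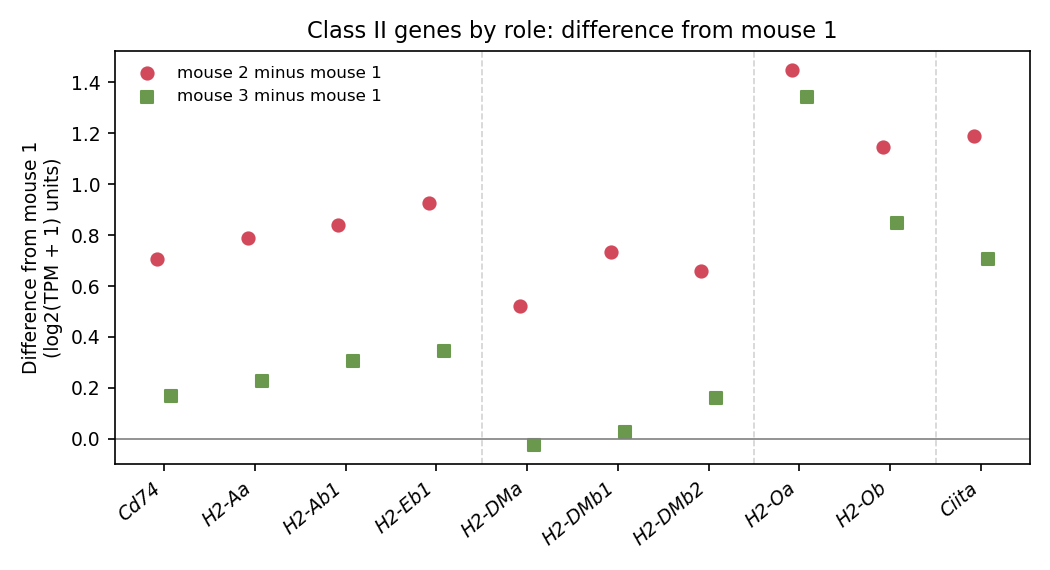
Difference of mouse 2 (circles) and mouse 3 (squares) from mouse 1 on the log2(TPM + 1) scale for the 10 genes, grouped by role with dashed lines between the chains with Cd74, H2-DM, H2-DO and Ciita. Mouse 3 lies 0.17 to 0.34 above mouse 1 in the chains and Cd74 and 0.16 above it in H2-DMb2. The difference is near 0 in H2-DMa and H2-DMb1, and 0.71 to 1.34 in Ciita, H2-Ob and H2-Oa.

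By the size of the difference the genes fell into a graded series. The log2 difference of mouse 2 from mouse 1 was 0.52 in H2-DMa, 0.66 in H2-DMb2, 0.71 in Cd74, 0.73 in H2-DMb1, 0.79 in H2-Aa, 0.84 in H2-Ab1, 0.93 in H2-Eb1, 1.15 in H2-Ob, 1.19 in Ciita and 1.45 in H2-Oa. The SD between mice on that scale had a median of 0.42 over the 10 genes and 0.21 over all genes with a mean of at least 1 TPM. It was wider than in 73.1% of those genes for H2-DMa and wider than in 97.2% for H2-Oa.

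Likeness of pattern was measured as the root mean square difference between centred log2(TPM + 1) profiles over the 3 mice, with the mean profile of Cd74, H2-Aa, H2-Ab1 and H2-Eb1 as reference, over genes with a mean of at least 10 TPM. Among the 5 other genes nearest to it were Prr5l, Trib1, Cmtm3 and Plekho2, at distances of 0.003 to 0.014. Prr5l was at 30.3, 54.4 and 36.5 TPM. Trib1, a pseudokinase of the Tribbles family, was at 49.1, 86.2 and 59.3 TPM. Cmtm3 was at 32.9, 58.1 and 38.8 TPM and Plekho2 at 107, 190 and 126 TPM. Over the 3 mice, 34 of 9505 other genes lay as near as Cd74, the farthest of the 4 reference genes at 0.048. None of the 5 stayed among the 5 nearest when Cd74 alone was the reference, or when any 1 mouse was left out. Of the remaining class II genes H2-DMb2 lay nearest at 0.065, then H2-DMb1 at 0.097, H2-DMa at 0.14, Ciita at 0.19, H2-Ob at 0.24 and H2-Oa at 0.44. As many as 64.1% of other genes lay nearer to the chains' profile than H2-Oa did.

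The DNA-binding partners through which Ciita acts varied less between mice than Ciita did. All 8 listed genes had a mean of at least 1 TPM, and their median SD between mice was 0.14 on the log2 scale, against 0.21 over all genes. Of the regulatory factor X subunits, Rfx5 was at 29.5, 43.6 and 38.2 TPM, in the order of Cd74. Rfxap was at 6.54, 3.65 and 4.26 TPM and Rfxank at 7.97, 7.11 and 8.23 TPM. Rfxap was thus highest in mouse 1, where Ciita was lowest. The NF-Y subunits were at means of 140 ± 20.8 TPM for Nfya, 37.7 ± 1.02 for Nfyb and 64.9 ± 3.88 for Nfyc, and Atf1 at 122 ± 14.7 (SD, n = 3). Creb1 was at 25.1, 27.3 and 29.1 TPM. Of the 8, 1 had the order of Cd74 and 0 reached 2-fold, against 14.4% and 8.57% of all genes, so these counts are near the share over all genes.

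The list of regulators upstream of Ciita, which also holds the class I transactivator gene Nlrc5, varied more. Of 12 listed, 11 were in the table, 10 had a mean of at least 1 TPM, 6 of those had the order of Cd74 (14.4% of all genes) and 3 reached 2-fold (8.57%), Irf4 and Socs1 among them. Nlrc5 was 1 of the 6 in that order, at 24.6, 33.8 and 28.2 TPM. Upper-quartile scaling gave 4 at 2-fold, and the median SD over the 10 was 0.46. Spi1 was not analysed here. Irf8, a transcription factor of monocyte and dendritic cell development, was at 716, 1256 and 775 TPM, and Ifngr1, a chain of the interferon gamma receptor, at 256, 496 and 328 TPM. Both were highest in mouse 2. Irf1, an activator of Ciita, was at 46.8, 86.5 and 83.4 TPM, with mice 2 and 3 together above mouse 1, as in H2-Oa and H2-Ob. Socs1, an inhibitor of interferon gamma signalling, ran the other way at 23.1, 12.8 and 9.36 TPM. Prdm1, a repressor of Ciita, was at 0.646 TPM or less in each mouse. Jak1 and Jak2, the kinases of the receptor, had means of 135 ± 5.38 and 127 ± 27.2 TPM (SD, n = 3).

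Of the 10 genes for endosomal processing, all had a mean of at least 1 TPM, 3 had the order of Cd74 (14.4% of all genes), 6 were highest in mouse 2 (31.1%) and 0 reached 2-fold (8.57%). Upper-quartile scaling gave 5 in that order, against 19.9% of all genes, and 1 at 2-fold. Their median SD was 0.25. Cst3, a cathepsin inhibitor, was far above the others at 4791, 7364 and 5120 TPM, 71.9% of Cd74 by mean. Ctss, the protease known to cut the invariant chain in dendritic cells, was at 243, 296 and 242 TPM, and Ctsl, which does so in thymic epithelium, at 11.3, 11.0 and 12.3 TPM. Ctss was thus far above Ctsl in each mouse. Ifi30, a thiol reductase of endosomes, was at 485, 616 and 422 TPM, and Ctsh at 76.0, 142 and 144 TPM.

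Of the surface turnover list, Cd83, which slows the removal of class II from the cell surface, was at 33.7, 165 and 111 TPM. Mouse 2 was 4.90 times mouse 1, a wider step than in any of the 10 class II genes. March1 and March8, the ligases it opposes, were not analysed here. Of 8 costimulation and adhesion genes, 7 had a mean of at least 1 TPM, 4 of them in the order of Cd74 (14.4% of all genes) and 3 at 2-fold or more (8.57%). Cd86 was at 104, 150 and 115 TPM and Cd80 at 4.53, 11.2 and 9.86 TPM, both ligands of the T cell receptor partner CD28, and Cd40 was at 8.69, 18.4 and 14.1 TPM. The checkpoint ligand Cd274 was at 12.1, 11.6 and 9.16 TPM and did not share the order. The median SD over the 7 costimulation and adhesion genes was 0.27.

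Cd74 at the cell surface also serves as a receptor for the cytokine Mif, with Cd44, Cxcr4 and Cxcr2 as partners. Mif was at 584, 386 and 393 TPM and Cxcr4 at 153, 95.7 and 139 TPM, both highest in mouse 1, where Cd74 was lowest. Cd44 was at 195, 226 and 206 TPM and Cxcr2 at 25.6, 32.4 and 29.3 TPM. So 2 of these 4 had the order of Cd74 and 0 reached 2-fold, with a median SD of 0.25, where 14.4% and 8.57% of all genes did. Of 6 class I genes (H2-K1, H2-D1, B2m, Tap1, Tap2 and Tapbp), 4 had the order of Cd74 and 0 reached 2-fold, beside the same shares of all genes, with a median SD of 0.27.

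The labelled cell type was checked against its markers. All 11 leukemic progenitor genes had a mean of at least 1 TPM and summed to 3429, 2534 and 4232 TPM, lowest in mouse 2, while the list's median on the log2(TPM + 1) scale, 7.60, 7.23 and 7.11, was lowest in mouse 3. The order of Cd74 was seen in 0 of 11, or 1 after upper-quartile scaling, against 14.4% and 19.9% of all genes. Kit, the enrichment marker, was at 139, 149 and 133 TPM, and the granule enzyme gene Mpo at 1081, 864 and 1632 TPM. Marker sums of several other cell types differed between the mice, and their part in the class II levels was not tested.

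The 10 conventional dendritic cell genes summed to 446, 945 and 677 TPM, and of the 9 with a mean of at least 1 TPM 6 had the order of Cd74 (14.4% of all genes), 8 were lowest in mouse 1 (24.3%) and 6 reached 2-fold (8.57%). The median SD over those 9 was 0.58. Zbtb46, a transcription factor of these cells, was at 56.7, 122 and 75.4 TPM, and Clec9a, a receptor for dead cells, at 184, 415 and 273 TPM. Xcr1, a chemokine receptor of the cross-presenting subset, was at 26.1, 75.8 and 56.0 TPM. Cd209a, at 7.13, 22.4 and 30.0 TPM, and Sirpa, at 24.9, 28.2 and 45.5 TPM, were highest in mouse 3, and Clec10a was at 18.7, 17.8 and 18.9 TPM. Clec4a4 was listed at 0 in mouse 2, and the other two mice had 0.233 and 0.215 TPM.

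B cell markers were low, apart from Ighm and Cd79b. The 10 genes summed to 54.9, 99.1 and 134 TPM, of which Ighm, an immunoglobulin chain gene, was 32.2, 76.8 and 108 TPM. Pax5 and Ms4a1, which mark the lineage, were at most 1.12 and 2.12 TPM in any mouse, and none of the 10 genes was at 0 in all mice. Of the 7 with a mean of at least 1 TPM, 0 had the order of Cd74, against 14.4% of all genes, and mouse 3 was the highest in the sum. In 5 of the 7 mouse 1 was the lowest (24.3% of all genes), and 2 reached 2-fold (8.57%). Cd79b, at 13.1, 8.94 and 10.1 TPM, and Ebf1, at 2.01, 1.87 and 1.60 TPM, were highest in mouse 1. The part of B cells in the H2-Oa and H2-Ob levels was not tested.

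Macrophage genes summed to 27.5, 36.7 and 39.8 TPM over 10 genes, and 3 of them, among them C1qa at most 0.719 TPM, never reached 1 TPM. Emr1 had the highest mean of the list, at 12.7, 21.5 and 21.6 TPM. Of the 5 with a mean of at least 1 TPM, 0 had the order of Cd74 (14.4% of all genes). In 2 of the 5 mouse 1 was the lowest (24.3% of all genes), and 1 reached 2-fold (8.57%). Monocyte genes summed to 663, 1001 and 2086 TPM over 8 genes, highest in mouse 3. Of the 7 with a mean of at least 1 TPM, 1 had the order of Cd74 (14.4% of all genes). In 6 of the 7 mouse 1 was the lowest (24.3% of all genes), and 6 reached 2-fold (8.57%). Lyz2, the lysozyme of myeloid cells, was at 194, 450 and 1209 TPM. Plasmacytoid dendritic cell genes summed to 94.2, 111 and 120 TPM over 8 genes, and T cell genes to 32.3, 34.4 and 37.6 TPM over 8. Mouse 1 was the lowest in 5 of 5 plasmacytoid and 4 of 5 T cell genes with that mean (24.3% of all genes). Of these lists, 1 and 0 genes reached 2-fold (8.57% of all genes). Under upper-quartile scaling mouse 1 was the lowest in 35.8% of all genes. The counts lowest in mouse 1 then stayed the same in the B cell, macrophage, monocyte, plasmacytoid and T cell lists. In the conventional dendritic list that count became 9. Mast cell and basophil genes summed to 84.8, 28.2 and 31.3 TPM over 6, with Tpsb2 and Tpsab1 at 0 in all mice, and erythroid genes to between 27.2 (mouse 2) and 71.3 TPM (mouse 3) over 5. None of these sums followed the order of Cd74.

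**Figure D4:**
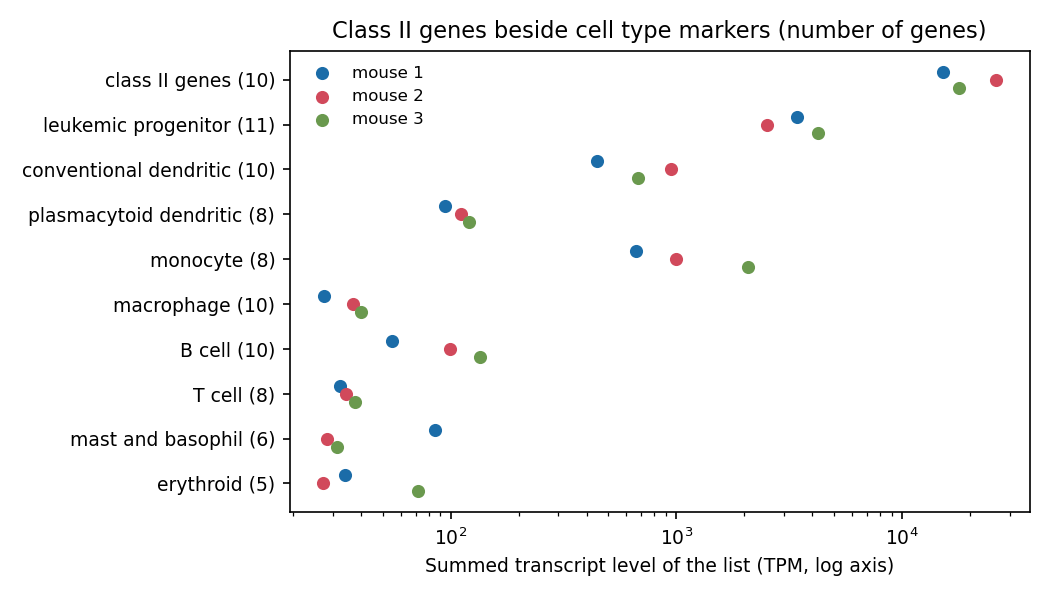
Summed TPM (log axis) of the 10 class II genes and of 9 marker lists in each mouse, with the number of genes in the table in brackets. The class II sum lies above each marker list in each mouse, and only the conventional dendritic list shares its order of mice (446, 945 and 677 TPM).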

How the data were processed

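RNA was sequenced from c-Kit-enriched spleen cells of 3 leukemic mice in 1 group. The submitters' processing notes name kallisto and mm10, with no version or role given, and the annotation is not given in the sources used here. The authors deposited 1 table per gene symbol whose name says log2 FPKM. The deposited values are linear and were read as TPM, since the columns sum to 929731, 927169 and 928490. Depth is unknown. The table's 28987 rows include 795 with no symbol and 27 with a date for a symbol, which were left out, and rows of 90 repeated symbols were summed. A further 3 per-sample columns of another series were not used. The mouse numbers follow the order of the sample records.

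Means and SDs over mice were computed on TPM and on log2(TPM + 1), with a minimum mean of 1 TPM (10 for likeness). With 1 group no test was made. Named genes are the 10 class II genes, preset lists and markers, and the 5 nearest genes, some of which are not reported here. These genes and lists were chosen with earlier results of these data known. Genes outside that rule (Brd2, the run ATGATGC, the wider class I family) were added once their values had been seen. The likeness search was tested on simulated data. Alternatives covered the pseudocount (0.1), upper-quartile scaling, the minimum level, the genes in the sum, the reference and each mouse left out. Python 3.11.15, numpy 2.4.6, pandas 2.3.3 and matplotlib 3.10.9 were used. Replicates are separate mice, per the labels' protocols.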

Additional observations from a re-analysis of the deposited data

How the results depend on the processing

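The level of each class II gene moved by less than 1 SD in 60 of 60 alternatives, and so did the ratios between genes in 52 of 52. Most of these were settled in advance, since leaving out 1 of 3 mice cannot move a mean by 1 SD of those mice. Each class II gene also had only 1 row, so taking the largest row of a repeated symbol changed nothing. These counts therefore give little support. The number of class II genes with a 2-fold range between mice, 3 with all mice, was between 0 and 3 when 1 mouse was left out, and the share of all genes at 2-fold was 8.57% with all mice, 2.90% without mouse 1, 13.1% with a pseudocount of 0.1 and 5.17% among genes with a mean of at least 10 TPM. Upper-quartile scaling gave 4 class II genes at 2-fold. None of the 5 nearest genes was kept (0 of 5) with Cd74 alone as the reference, nor when a mouse was left out, which leaves 2 points per gene (0 of 5 in each case), against 5 under upper-quartile scaling and 4 with genes of a mean of at least 1 TPM. The share of summed TPM in the class II genes ran from 1.80% to 2.39% with 1 mouse left out. No paired analysis was possible because the samples form 1 group. Precision is limited by 3 mice and an unknown depth, so no counting error can be attached to low genes such as H2-Ea-ps.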

Other observations

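The class I heavy chain genes and their relatives in the H2-D, H2-K, H2-Q, H2-T and H2-M groups, chosen after their values were seen, were examined for the same order of mice. Of 28 in the table, 16 had a mean of at least 1 TPM. Among those 16, mouse 2 was the highest in 14, against 31.1% of all genes, and mouse 1 the lowest in 14, against 24.3%. Both counts were the same under upper-quartile scaling, where the shares of all genes were 33.9% and 35.8%. The order of Cd74 was seen in 12, against 14.4% of all genes, and 2 genes reached 2-fold or more, against 8.57%. Those 2, H2-M2 and H2-M5, were the lowest of the 16 by mean, at most 2.64 and 2.55 TPM in any mouse. H2-D1, a classical class I heavy chain, was at 637, 872 and 738 TPM in mice 1, 2 and 3, and H2-K1 at 643, 786 and 687 TPM. H2-Q6, a non-classical gene, was at 174, 177 and 118 TPM, lowest in mouse 3. H2-M2 was at 0.407, 2.43 and 2.64 TPM, with mice 2 and 3 together above mouse 1, as in H2-Oa. Reads of these near-identical genes may be split between copies, so the levels of single members are uncertain.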
